A study of Mus musculus with 6 samples.

Results

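The genes described here are 10 regulators of growth arrest in mouse intervertebral discs (IVDs): the cyclin kinase inhibitors Cdkn1a, Cdkn1b, Cdkn1c and Cdkn2a, the tumour suppressor gene Trp53 (p53), its regulator Mdm2, the p53 targets Ccng1 and Gdf15, and Gadd45a and Gadd45b. They were chosen by symbol from the 43472 gene symbols counted, and all 10 were found. Cdkn1a had been seen to be higher in mutants in an earlier look at these libraries, so for these 10 genes the mutant and control values are given as a description, without a test. RNA-seq was made from whole IVDs of mice at postnatal day 20, with 3 libraries from Col2Cre;Adgrg6 f/f mutants and 3 from controls, each from IVDs pooled over 2 to 3 mice. In the mutants, Cre under a type II collagen promoter removes Adgrg6, an adhesion G protein-coupled receptor, from the whole IVD and also from periosteum and trabecular bone of the vertebrae. Controls are Cre (-) littermates in the study's methods, wild type in the genotype label and Col2Cre controls in the titles, so whether they carry Cre or floxed alleles is not settled by the labels. The strain label is C57B6/J for both groups. The question was which transcripts differ in IVDs that lack the receptor.

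Cyclin kinase inhibitors hold cells out of division. The CIP/KIP proteins p21 (Cdkn1a), p27 (Cdkn1b) and p57 (Cdkn1c) bind cyclin-CDK complexes, and the Cdkn2a locus encodes p16INK4a, which blocks CDK4 and CDK6, and ARF, which restrains Mdm2. p53 is a transcription factor held low by the ubiquitin ligase Mdm2, and both Cdkn1a and Mdm2 are among its targets, although Cdkn1a is also driven by many signals that do not pass through p53. In cartilage, p57 and p21 are known from chondrocytes that leave the cell cycle as they mature.

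Cdkn1a is the gene the results turn on, and the 300-base windows around its 2 RefSeq start sites are shown because one of them carries a full p53 element. The gene lies at chr17:29090976-29100727 on the plus strand of GRCm38 (GENCODE M21). The windows run from 250 bases before to 50 bases after each start, 5′ to 3′ on the plus strand of GRCm38.p6. Capitals mark the p53 element in the upstream window and GGGCGG boxes in the downstream window.

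Cdkn1a upstream window, chr17:29090729-29091028: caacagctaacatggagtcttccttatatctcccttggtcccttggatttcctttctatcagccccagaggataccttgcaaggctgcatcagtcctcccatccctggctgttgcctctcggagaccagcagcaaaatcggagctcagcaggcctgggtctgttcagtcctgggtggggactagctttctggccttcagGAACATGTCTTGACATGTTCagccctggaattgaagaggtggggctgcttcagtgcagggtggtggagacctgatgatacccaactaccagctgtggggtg
Cdkn1a downstream window, chr17:29093519-29093818: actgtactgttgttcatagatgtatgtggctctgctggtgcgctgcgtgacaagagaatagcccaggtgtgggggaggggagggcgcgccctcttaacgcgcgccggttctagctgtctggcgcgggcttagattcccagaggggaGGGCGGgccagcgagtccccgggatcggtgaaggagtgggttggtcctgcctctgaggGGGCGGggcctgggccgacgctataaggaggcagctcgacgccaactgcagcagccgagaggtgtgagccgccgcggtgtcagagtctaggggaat

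The p53 element in the upstream window, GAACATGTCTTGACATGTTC, spans chr17:29090928-29090947. It begins 51 bases before the upstream start and 2841 bases before the downstream start, and it departs from the p53 consensus at 1 base. The search took 2 adjacent p53 decamers with intact cores on either strand, and was loosened to 1 departure after a strict search had found no such element in the members. By this measure 18 of 32851 RefSeq windows, or 0.0548%, hold a full p53 element, and the other 11 windows of the members do not. Gene counts do not tell which start the Cdkn1a transcripts used, and a match is a description of the letters, not of binding.

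Single p53 decamers were found in 5 of the 12 member windows, which cover 9 of the 10 genes, against 8.36% of all windows. Those of the members other than Cdkn1a are printed to show which genes carry one, each on the strand of its gene. For Mdm2 and Gadd45a, the best known p53 elements lie in introns, outside these windows.

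Trp53, chr11:69580284-69580293: GGACTTGCCC
Mdm2, chr10:117710935-117710944: GAACTTGCCT
Ccng1, chr11:40755462-40755471: GGGCAAGCCT
Gadd45a, chr6:67037438-67037447: GGGCTAGCCC

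Other letters were searched on both strands of the same windows. The STAT motif TTCNNNGAA was in 0 of 12 member windows (8.30% of all windows), the CRE motif TGACGTCA in 0 (1.79%) and the AP-1 motif TGANTCA in 0 (7.81%). The GC box GGGCGG was in 7 of 12 (35.7%), and CCAAT in 8 of 12 (37.4%). Among 31 windows of 24 p53 target genes outside the members, 1 held a full p53 element, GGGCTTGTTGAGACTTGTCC at chr9:66946296-66946315 near Rps27l.

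The libraries held 9061491 to 12017008 counts on genes, which were 40.4% to 44.2% of the counted fragments. Adgrg6 itself, listed under its older name Gpr126, was at 124, 108 and 94.3 counts per 1000000 counts on genes (CPM) in controls 1, 2 and 3 and 138, 124 and 106 CPM in mutants 1, 2 and 3. Its groups overlapped (log2 fold change 0.17, SE 0.18), and counts over the whole gene do not measure the deleted part, so they do not check the genotype labels. Chondrocyte markers led the marker lists in every library, with 85148 to 142806 summed CPM in controls and 118285 to 146148 in mutants over 10 genes, so the markers of the labelled tissue were present. Nothing in the labels says more of how the pools were formed, and a p-value measures the spread between these 6 pools only. In pools of whole tissue, fewer cells of a type and less RNA per cell cannot be told apart.

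Cdkn1a, encoding p21, was about 2 times as high in mutant IVDs. It was at 92.6, 86.3 and 64.2 CPM in controls 1, 2 and 3 and at 163, 161 and 171 CPM in mutants 1, 2 and 3. The mutants lay close together and all above the highest control, whereas control 3 was well below the other controls. The means were 81.0 ± 14.9 CPM in controls and 165 ± 5.39 CPM in mutants (SD, n = 3 each), 2.03 times apart, with a log2 fold change of 1.02 (SE 0.19). Leaving out 1 library at a time gave log2 fold changes from 0.89 without control 3 to 1.15 without control 1. The deviations from the group mean on the log2 scale were 0.21, 0.11 and -0.32 in the controls, and between -0.04 and 0.05 in the mutants.

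Among all genes, a higher level in every mutant than in any control was found for 881 of 16152 tested, or 5.45%, and a log2 fold change of at least 1 for 212, or 1.31%. Cdkn1a, which was chosen for this contrast, ranked at place 196 of 16152 by log2 fold change. Of the 1726 genes with a control level at least that of Cdkn1a, 10 had a log2 fold change at least as high, Cdkn1a included. It was the only member whose groups did not overlap.

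**Figure D1:**
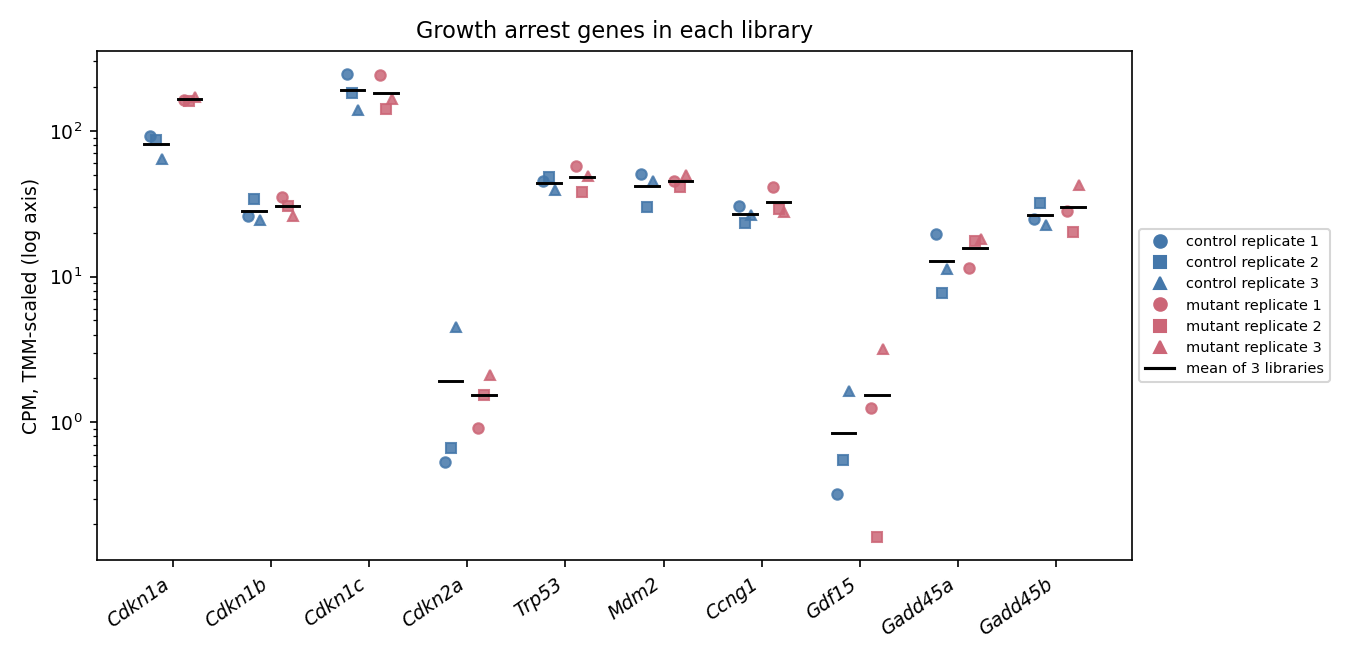
CPM of the 10 members in each library on a log axis, blue for controls and red for mutants, with a symbol for each replicate number and a black line at the mean of 3 libraries. The mutant points of Cdkn1a all lie above its control points, and the points of the other 9 genes intermix.

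The other CIP/KIP genes did not separate the groups. Cdkn1b, encoding p27 (chr6:134920401-134925513), was at 25.9, 34.1 and 24.6 CPM in the controls and 35.2, 30.6 and 26.2 CPM in the mutants. Its log2 fold change was 0.12 (SE 0.19), and control 2 was above mutants 2 and 3. Cdkn1c, encoding p57 (chr7:143458339-143461050), was at 246, 183 and 139 CPM in the controls and 241, 142 and 165 CPM in the mutants. The spread within each genotype was wide, with replicate 1 highest in both, and the log2 fold change was -0.05 (SE 0.26).

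Per kb of exon, the 3 CIP/KIP genes kept the same order in the means of both groups, with Cdkn1c highest. In controls Cdkn1c was at 92.8 ± 26.4 CPM per kb, Cdkn1a at 22.8 ± 4.20 and Cdkn1b at 6.20 ± 1.13 (SD, n = 3). In mutants they were at 89.6 ± 25.2, 46.3 ± 1.52 and 6.74 ± 0.98 CPM per kb. Within a library, where scaling between libraries plays no part, Cdkn1a made up 17.1%, 20.0% and 19.8% of the summed CIP/KIP level per kb in controls 1, 2 and 3. In mutants 1, 2 and 3 it made up 26.7%, 37.1% and 35.6%. The lowest mutant share was thus above the highest control share, which restates the Cdkn1a difference from the same counts. Mutant 1, in which Cdkn1c was highest among the mutants, had the lowest Cdkn1a share of them. Cdkn1a shares 273 exon bases with AC167363.2 and Cdkn1c 625 with Gm44732, both on the opposite strand and not analysed here.

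**Figure D2:**
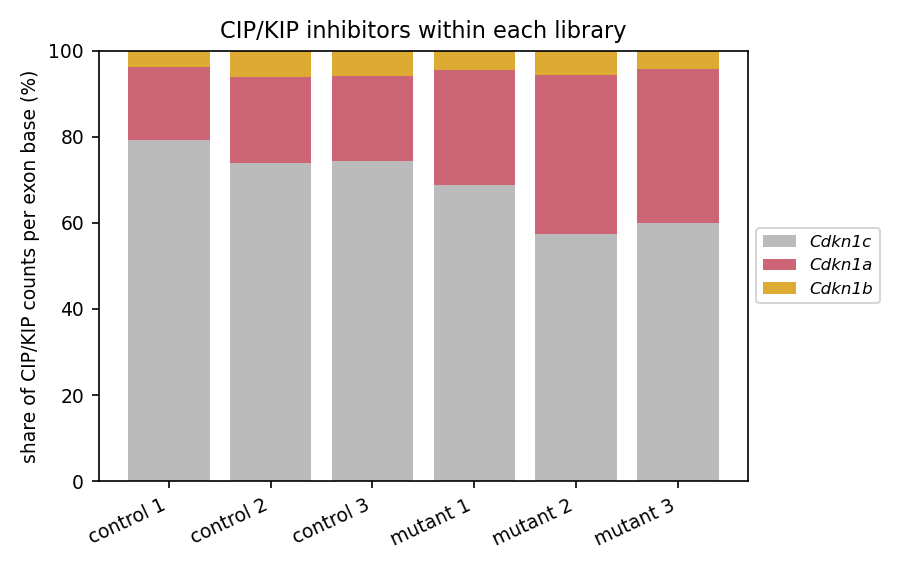
Share of each CIP/KIP gene in the summed CPM per kb of exon of the 3 genes, in percent, with 1 bar for each library. The Cdkn1a segment runs from 17.1% to 20.0% in the controls and from 26.7% to 37.1% in the mutants, and Cdkn1c is the largest segment in all 6 libraries.

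Cdkn2a was near the lower end of what these libraries measure. Its counts were 5, 6 and 58 in controls 1, 2 and 3 and 8, 19 and 20 in mutants 1, 2 and 3, 116 in all. Control 3 alone held more than all 3 mutants together, and the log2 fold change of -0.35 (SE 0.83) became 1.34 without it. The gene (chr4:89274471-89294653, minus strand) yields the p16INK4a and ARF transcripts, which gene counts do not tell apart. Control 3 also had the most counts on 1094 olfactory receptor genes, which disc cells are not known to use: 398, against 129 and 176 in the other controls and 69, 166 and 113 in the mutants. These receptor counts were looked at after the data had been seen, and their part in the Cdkn2a value was not tested.

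Trp53 and its regulator Mdm2 overlapped between the groups. Trp53 (chr11:69580359-69591873) was at 45.3, 48.1 and 39.0 CPM in the controls and 57.1, 38.3 and 49.3 CPM in the mutants, with a log2 fold change of 0.13 (SE 0.19). Mutant 1 was the highest library and mutant 2 the lowest. Mdm2 (chr10:117688875-117710758), which marks p53 for degradation and is itself a p53 target, was at 50.2, 29.9 and 45.3 CPM in the controls and 45.2, 41.0 and 49.5 CPM in the mutants. Control 1 held the highest value and control 2 the lowest, so that the mutants lay within the range of the controls. The log2 fold change of Mdm2 was 0.11 (SE 0.21), and it was -0.08 without control 2.

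The p53 targets Ccng1 and Gdf15 did not separate the groups either. Ccng1, encoding cyclin G1 (chr11:40748552-40755311), was at 30.5, 23.2 and 26.6 CPM in the controls and 41.1, 29.0 and 27.6 CPM in the mutants. Mutant 1 was above all other libraries, mutants 2 and 3 were within the control range, and the log2 fold change was 0.28 (SE 0.20). Gdf15, a secreted stress-induced cytokine (chr8:70629393-70632456), had only 3, 5 and 21 counts in the controls and 11, 2 and 30 in the mutants. Replicate 3 was highest in both groups. Gdf15 had 72 counts in all, and its log2 fold change was 0.80 with an SE of 0.97. Without mutant 3 it was -0.32, and without control 3 it was 1.77.

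The Gadd45 proteins link stress to p38 and JNK kinase signalling and to arrest of the cell cycle. Gadd45a (chr6:67035096-67037457) was at 19.6, 7.77 and 11.3 CPM in the controls and 11.4, 17.6 and 18.1 CPM in the mutants. Control 1 was the highest of all 6 libraries, and the log2 fold change of 0.29 (SE 0.34) was 0.74 without control 1 and 0.03 without control 2. Gadd45a shares 337 exon bases with E230016M11Rik on the opposite strand, which had 713 counts against its 883, and the strand setting of the counting is not given in the sources used here. Gadd45b (chr10:80930073-80932204) was at 24.7, 31.8 and 22.6 CPM in the controls and 28.1, 20.2 and 42.3 CPM in the mutants. Mutant 3 was highest and mutant 2 lowest, and the log2 fold change was 0.19 (SE 0.26).

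**Figure D3:**
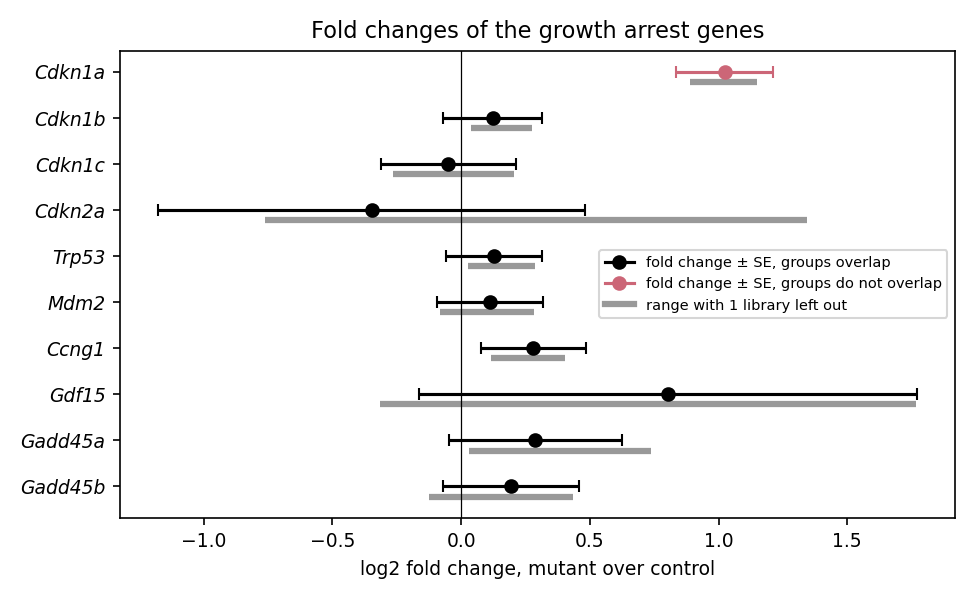
Log2 fold change of mutant over control for each member, with its standard error as a bar and, in grey, the range when each of the 6 libraries is left out in turn. Cdkn1a, in red, stays between 0.89 and 1.15, and the fold changes of the others run from -0.35 for Cdkn2a to 0.80 for Gdf15, the 2 genes with the widest ranges.

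All 10 members passed the filter on low counts, and 8 had a log2 fold change above 0, beside 48.4% of all 16152 genes. The median of the 10 was 0.16, beside a median of -0.01 over all genes. The 8 include Cdkn1a, which was chosen as higher. They also include Cdkn1b, Mdm2, Gdf15 and Gadd45b, each of which took the opposite sign in 1 of 11 alternatives. The count is thus no measure of a shift of the members as a set. Ordered per kb of exon in the controls, Cdkn1c (92.8 CPM per kb) was followed by Cdkn1a (22.8), Gadd45b (16.6), Trp53 (10.9), Mdm2 (8.22), Ccng1 (7.62), Gadd45a (7.30), Cdkn1b (6.20), Cdkn2a (1.63) and Gdf15 (0.45). Neighbours from Trp53 to Cdkn1b in this order overlapped in their ranges over libraries, as did Cdkn1a with Gadd45b and Cdkn2a with Gdf15. In the mutants Cdkn1a at 46.3 CPM per kb no longer overlapped with Gadd45b, whose libraries ran from 12.7 to 26.6 CPM per kb, and it remained below Cdkn1c at 89.6.

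Of the other p53 targets, 6 rose at an unadjusted p under 0.05, while most genes of the list did not pass the test. Of 32 genes in this list, 31 passed the filter on low counts, 23 with a log2 fold change above 0 and 8 below, and the median was 0.15. The 6 genes past the threshold (edgeR's quasi-likelihood test) are 19.4% of the list, against 7.21% of all genes tested in either direction and 2.89% in this direction, and 0 fell. None passed after Benjamini-Hochberg adjustment over all genes, where only 1 gene (0.00619%) did. In 8 of the 31 genes the mutants lay above all controls (5.45% of all genes), and in 1, Ddb2, below (11.4% of all genes in either direction). The count of 6 past the unadjusted threshold was 3 without mutant replicate 1.

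Psrc1, a microtubule-binding protein of the spindle, was at 11.5, 8.77 and 8.44 CPM in the controls and 17.5, 19.3 and 17.5 CPM in the mutants, with a log2 fold change of 0.92 (SE 0.22, unadjusted p = 0.0016 and adjusted p = 0.58, edgeR). Btg2, an antiproliferative cofactor of mRNA deadenylation, rose from 18.9 ± 5.48 to 34.6 ± 8.70 CPM (SD, n = 3), a log2 fold change of 0.87 (SE 0.25). Aen, an apoptosis-enhancing nuclease, rose from 12.3 ± 2.87 to 21.8 ± 5.22 CPM. For Ephx1, the microsomal epoxide hydrolase, the means were 37.3 ± 7.17 and 55.9 ± 11.3 CPM. These 4 genes had no overlap between the groups and unadjusted p-values from 0.0016 to 0.0196, with adjusted p-values of 0.58 to 0.68 (edgeR). Psrc1, Btg2 and Aen stayed past the unadjusted threshold with any library left out, and Ephx1 did not without control 1, mutant 1 or mutant 3.

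The other genes of the list named here were picked after their values were seen. Sesn2, a stress-induced inhibitor of mTORC1, and Pml, which organizes nuclear bodies, completed the 6 with log2 fold changes of 0.59 and 0.45. With 1 library left out, Sesn2 passed in only 1 of 6 fits and Pml in 2 of 6. The apoptosis gene Bax had a log2 fold change of 0.15 (SE 0.28) and Bbc3, encoding Puma, one of 0.02 (SE 0.21). Zmat3 and Phlda3 were at 0.48 (SE 0.23) and 0.34 (SE 0.17), and neither passed the unadjusted threshold in edgeR. The lowest of the list was Polk, a translesion polymerase, at -0.43 (SE 0.30).

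**Figure D4:**
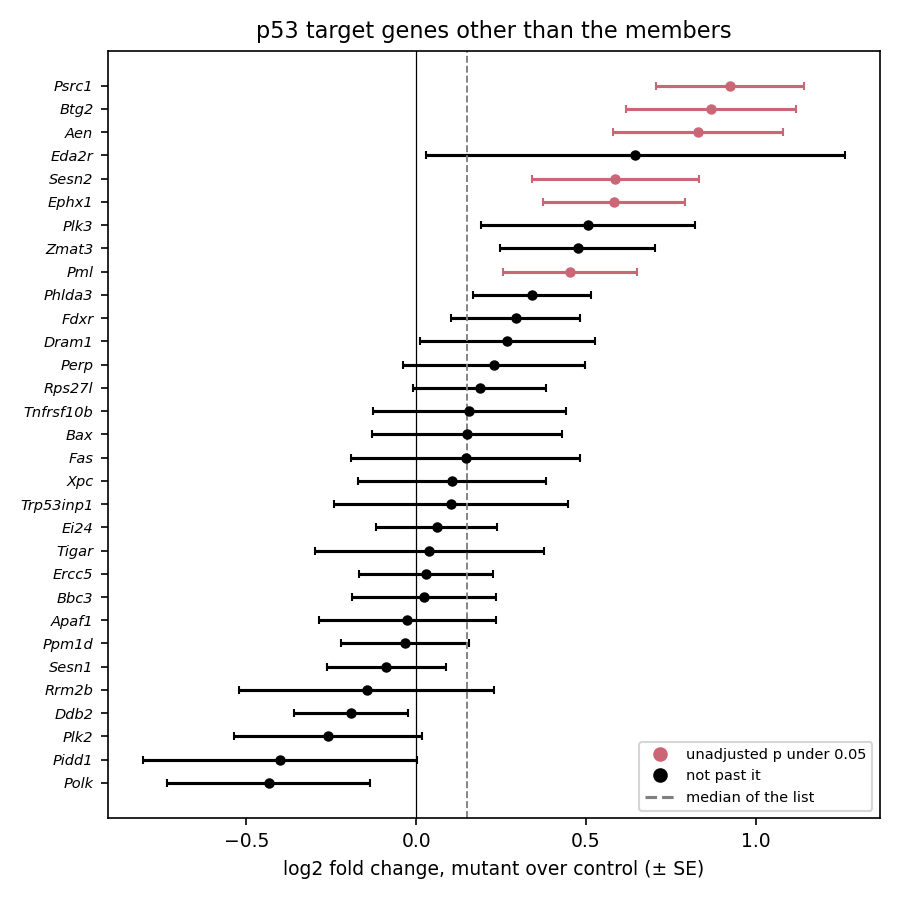
Log2 fold changes, with standard errors, of the 31 tested p53 targets that are not among the 10 members, in order of size. The 6 genes in red passed an unadjusted p of 0.05, all above 0, and the dashed line marks the list median of 0.15.

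Among regulators of p53, 17 of 19 were tested, and 1 rose and 2 fell at an unadjusted p under 0.05, beside 2.89% and 4.32% of all genes, with a list median of -0.09. The 1 became 0 without control 2 or mutant 3. The 2 became 0 without control 3, and 1 without control 1, mutant 1 or mutant 3 or with a replicate block. Trp63, encoding the p53 relative p63, was at 4.52 ± 3.52 CPM in controls and 1.24 ± 0.19 in mutants (log2 fold change -1.87, SE 0.63). Its highest library was control 3 at 8.52 CPM, and without it the log2 fold change was -1.005 and did not pass. Ep300, a histone acetyltransferase that acts on p53, had a log2 fold change of 0.58 (SE 0.20), and Hipk2, a p53 kinase, one of -0.45 (SE 0.18). Mdm4, the partner of Mdm2, was at 52.3 ± 5.53 CPM in controls and 52.4 ± 5.83 CPM in mutants.

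The cell cycle lists had shares of calls near that of all genes, with 11.1% of the G1 list and 3.85% of the proliferation list past an unadjusted p of 0.05 in either direction, beside 7.21%. The 4 other CDK inhibitors had 0 at an unadjusted p under 0.05 in edgeR and 0 after adjustment, with Cdkn2d at a log2 fold change of -0.12 (SE 0.27) and Cdkn2c at 0.05 (SE 0.26). Of 18 G1 cyclins, CDKs and Rb/E2F genes, Ccnd2, a D-type cyclin, rose from 106 ± 26.8 to 178 ± 17.5 CPM (SD, n = 3), a log2 fold change of 0.74 (SE 0.21, adjusted p = 0.68 in edgeR). Ccnd2 was at 136, 84.2 and 98.8 CPM in the controls and 165, 198 and 171 CPM in the mutants, apart as for Cdkn1a. Its partner kinase Cdk6 fell by 0.60 on the log2 scale (SE 0.27), a call that was lost with RLE size factors, without the filter on low counts, in DESeq2, with a replicate block, and with any library but mutant 2 left out. The G1 list had 1 gene higher, and 2 in DESeq2, in limma-voom and without mutant 2. Its median log2 fold change was 0.21, with 14 of 18 genes above 0 and 4 below. In 3 of the 18 the mutants lay above all controls, beside 5.45% of all genes, and in 1 below. Of 26 proliferation genes 0 rose and 1 fell, the spindle motor Kif11 (log2 fold change -0.62, SE 0.27), and the median of the list was 0.02. Kif11 did not pass in DESeq2, in limma-voom, with a replicate block, or without control 1, mutant 1, control 3 or mutant 3.

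The Gadd45 list, with Gadd45g and kinases of the p38 pathway, had 0 of 6 genes past an unadjusted p of 0.05 in edgeR, beside 7.21% of all genes, and 0 past an adjusted one. In so short a list a count of 0 is not distinct from that share. It had 2 higher when control 1 was left out and 1 when mutant 2 was. Gadd45g, named after its values were seen, was at 25.8 ± 3.15 CPM in controls and 33.0 ± 4.68 in mutants (log2 fold change 0.36, SE 0.18). Map2k3 and Mapk14, the most abundant of the list, had log2 fold changes of 0.27 (SE 0.18) and -0.02 (SE 0.16).

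Immediate early genes respond within minutes to growth factors and stress, and most of them rose at an unadjusted p under 0.05. Of 18 genes, 13 rose, or 72.2% beside 2.89% of all genes in this direction, 0 fell, and the median log2 fold change was 0.85. After Benjamini-Hochberg adjustment 0 of the 18 passed, and 0 in each of the other pathway lists. The lists were chosen with earlier results of these data known, so these shares are a description only. In 4 of the 18 the mutants lay above all controls, beside 5.45% of all genes. The 13 became 6 when mutant 1 was left out, 7 when control 2 or control 3 was, and 8 when mutant 3 was. Jun rose from 90.4 ± 26.2 to 206 ± 79.7 CPM, and Atf3, a stress-induced factor, from 12.8 ± 0.93 to 21.7 ± 5.12 CPM. Jun shares 232 exon bases with Junos on the opposite strand. Fosb was at 143, 36.3 and 14.1 CPM in mutants 1, 2 and 3. Its log2 fold change of 2.45 (SE 0.66) thus came mostly from mutant 1 (1.14 without it), and was not past the threshold in limma-voom. Zfp36 had a log2 fold change of 1.69 (SE 0.49), from 1.16 to 2.46 with a library left out, and its groups overlapped. The mean log2 CPM of the list was 4.78, 4.28 and 4.10 in controls 1, 2 and 3 and 5.96, 4.85 and 5.11 in mutants 1, 2 and 3. Cdkn1a had the same order in the controls, but in the mutants it was 163 CPM where the list was highest and 171 CPM in mutant 3. The part of these genes in the Cdkn1a value was not tested.

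In the integrated stress response, 5 of 10 genes rose and 1 fell at an unadjusted p under 0.05, 60% in either direction beside 7.21% of all genes, with a median log2 fold change of 0.43. The 5 became 2 when control 3 or mutant 3 was left out, 3 when mutant 1 was, and 2 with a replicate block. Ddit4, an inhibitor of mTORC1 that p53 can also induce, rose from 129 ± 27.1 to 242 ± 54.1 CPM (log2 fold change 0.91, SE 0.23). Trib3 rose at low levels, from 1.20 ± 0.63 to 4.13 ± 2.08 CPM, a call lost without mutant 2. Atf5 had a log2 fold change of 0.47 (SE 0.18), and its call was lost with a replicate block and without control 3 or mutant 3. Slc7a11, the cystine transporter, fell by 1.78 on the log2 scale (SE 0.63), with the control values spread over 9.23 ± 7.78 CPM. Without control 3 it fell by 0.88, and it did not pass without control 3, mutant 1 or mutant 3. Sesn2 is in this list as well as among the p53 targets.

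Of 15 genes associated with senescence, 8 passed the filter on low counts, and 3 of them rose at an unadjusted p under 0.05 and 0 fell, 37.5% beside 7.21% of all genes. Values are given for 2 of the 3. Mmp3, a matrix protease, rose from 6.65 ± 2.51 to 15.5 ± 3.76 CPM (log2 fold change 1.22, SE 0.32). Igfbp3 was at 16.3 ± 1.01 CPM in controls and 24.7 ± 8.75 CPM in mutants, and its log2 fold change of 0.60 became 0.32 without mutant 1. Its call was lost without mutant 1, control 2 or control 3 and in limma-voom. The 7 genes below the filter were Il6, Il1a, Il1b, Cxcl1, Cxcl2, Ccl2 and Ccl7, the cytokines of the list.

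Known inputs to CDK inhibitors outside p53 were read in 2 further lists. Of 7 FoxO genes and FoxO-regulated arrest genes, 7 had a log2 fold change above 0 (median 0.28), and Bcl6, a transcriptional repressor, and Foxo3 rose, 28.6% of the list beside 7.21% of all genes. Bcl6 was at 71.8, 80.2 and 64.9 CPM in the controls and 123, 117 and 104 CPM in the mutants, all mutants above all controls (log2 fold change 0.67, SE 0.17, unadjusted p = 0.0026 and adjusted p = 0.62 in edgeR). Foxo3 had a log2 fold change of 0.43 (SE 0.16), and its call was lost without mutant 1, control 2 or control 3. Of 10 TGF-beta and BMP genes, Id2, an inhibitor of bHLH factors, rose by 0.75 (SE 0.21) on the log2 scale and Tgfb2 fell by 0.51 (SE 0.19), 20% of the list in either direction, with a list median of 0.07. The call of Tgfb2 was lost without control 1, mutant 1, control 3 or mutant 3, and 3 genes of the list were higher without control 1.

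**Figure D5:**
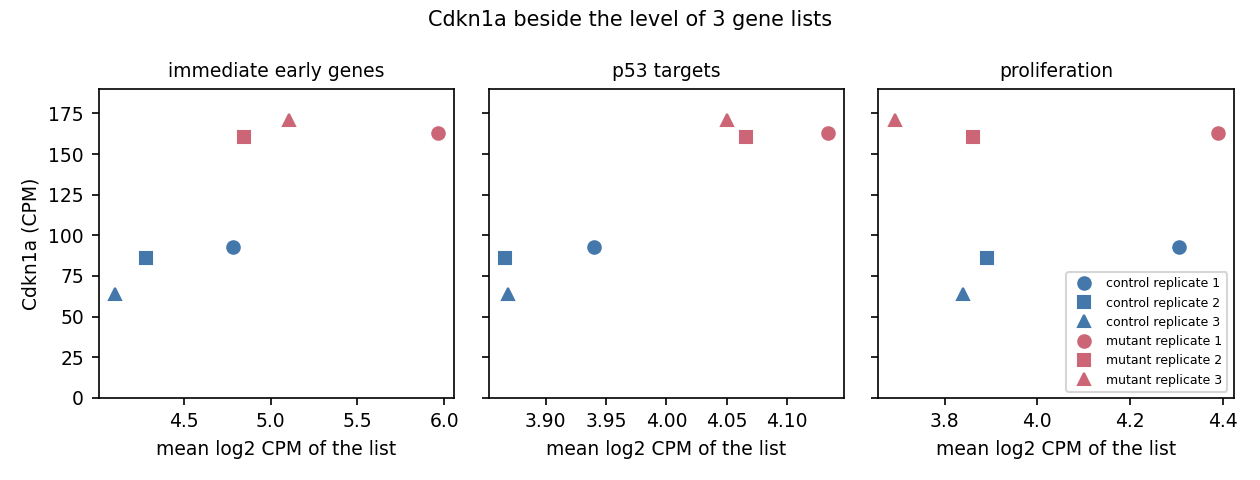
Cdkn1a in CPM against the mean log2 CPM of 3 gene lists, with 1 point for each library, blue for controls and red for mutants. The mutants lie to the right of the controls for immediate early genes (4.85 to 5.96 against 4.10 to 4.78) and p53 targets (4.05 to 4.13 against 3.87 to 3.94), and the groups intermix along the axis of the proliferation genes.

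Markers of other cell types overlapped between the groups for all 11 lists by their summed CPM, but single markers differed at an unadjusted p under 0.05 (edgeR), which 2.89% of all genes passed as higher and 4.32% as lower. With 6 to 10 genes a list, a count of 1 or 0 is little to read against these shares. The 6 of 6 skeletal muscle markers were lower in mutants (median log2 fold change -3.11), which came from control 1 alone: their sum was 3609, 95.0 and 65.0 CPM in controls 1, 2 and 3 and 148, 145 and 135 CPM in the mutants, so that without control 1 every mutant lay above the controls. In the annulus and tendon list 3 of 7 were higher (median 0.47), with 3200 to 4573 summed CPM in controls and 4193 to 5785 in mutants. Osteoblast markers had 3 of 6 higher and 1 lower (median 0.56), and those of neurons and glia had 2 higher of 6 tested (median 1.31). Chondrocyte markers had 2 of 10 lower (median -0.30), hypertrophic chondrocyte markers 2 of 6 lower (median -0.48) and nucleus pulposus markers 1 of 7 tested lower (median 0.09). Of the blood lists, neutrophil precursors had 2 of 8 higher (16.2 to 59.3 against 32.7 to 153 CPM, median 1.005), red blood cell precursors 1 of 8 tested (40.1 to 345 against 215 to 453 CPM, median 1.001) and macrophages 1 of 8 (53.8 to 75.9 against 58.4 to 114 CPM, median 0.39). Endothelial markers had 0 of 6 in either direction (113 to 231 against 188 to 213 CPM, median 0.23). Control 1 was also the highest control for Cdkn1a, Cdkn1c, Mdm2, Ccng1 and Gadd45a. Without control 1 the log2 fold change of Cdkn1a was 1.15. Osteoblast markers (6 genes) were at 4067 to 13149 CPM in controls and 11762 to 20382 CPM in mutants. Markers of hypertrophic chondrocytes (6 genes) were at 2346 to 3639 CPM in controls and 2290 to 2717 CPM in mutants, and those of neurons and glia (7 genes) at 216 to 1644 CPM and 901 to 3570 CPM. The defining markers Noto of the nucleus pulposus and Tubb3 of neurons had at most 3 counts in any library. The part of the cell make-up in the Cdkn1a level was not tested.

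The genes whose log2 CPM was most like that of Cdkn1a were sought among 9964 genes with a mean of at least 10 CPM. Over all 6 libraries the highest Pearson r were those of Gm26648 (0.995), Bcr (0.993), Arhgap44 (0.986), Gm11747 (0.986) and Eif1a (0.985), and the lowest was that of Tmem87a (-0.998). These points share the difference between the groups, and 163 genes had an r of at least 0.9. Bcr was at 56.6, 52.5 and 47.1 CPM in the controls and 70.9, 68.2 and 69.7 CPM in the mutants. Gm26648 shares 706 exon bases with Nub1, Gm11747 642 with C1qtnf1 and Tmem87a 209 with Ganc, each on the opposite strand.

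After the group means were taken away, the genes most like Cdkn1a over the 6 libraries were Slc35c1 (r = 0.9996), Cyp4f17 (0.998), Tgfb3 (0.995), Pgd (0.994) and Nkd2 (0.993). With other settings or a library left out, the r of these 5 genes was at least 0.928. They were picked for the highest r in these same libraries, so this value is no measure of stability. The r rests mostly on the controls, where Cdkn1a deviated by 0.21, 0.11 and -0.32, against -0.04 to 0.05 in the mutants. Tgfb3, a growth factor of the TGF-beta family, was at 113, 103 and 77.5 CPM in the controls and 124, 118 and 131 CPM in the mutants. The correlations describe 6 libraries that differ also in depth and make-up, and 268 genes reached an r of 0.9 in this second measure.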

How the data were processed

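The authors deposited 1 file of raw counts per gene symbol for each of 6 poly(A) RNA-seq libraries. The submitters' processing notes name STAR 2.5.3a, HTSeq and DESeq2. The study's methods instead name Cutadapt, FastQC, HISAT2 on GRCm38.88, StringTie for expression levels and Ballgown for differential expression. Which of these made the count files is not settled, and the strand setting is not given in the sources used here. A table of the authors' own comparison (fold changes and p-values) was not used.

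Counts were normalized by TMM, and 16152 genes left by filterByExpr (count minimum 10) were tested with the quasi-likelihood test of edgeR 4.0.16 in R 4.3.3, and p-values were adjusted over all 16152 by Benjamini-Hochberg. CPM use TMM-scaled library sizes, and correlations use log2 CPM with a prior count of 2. Values per kb divide by the union of GENCODE M21 exons. Rows that name no gene were left out. They held 55.8% to 59.6% of fragments. Alternatives were RLE size factors, no filter, a replicate block, DESeq2 1.42.0, limma-voom (limma 3.58.1) with quality weights and leaving out each library. Scripts were tested on simulated data. Precision from depth covers counting error only.

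The members and gene lists were chosen with earlier results of these data known. Named genes are the 10 members, Adgrg6, up to 4 genes per list with the smallest unadjusted p under 0.05 (otherwise the 2 most abundant), and the 5 most and the 1 least like Cdkn1a by each measure. Some genes this rule names are not reported here. Promoter windows are those of RefSeq (GRCm38.p6).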

Additional observations from a re-analysis of the deposited data

How the results depend on the processing

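Cdkn1a kept its direction in all 11 alternatives, with log2 fold changes of 0.89 to 1.15 when a library was left out. Its control mean then ran from 75.2 to 89.4 CPM and its mutant mean from 162 to 167 CPM. The number of genes named for likeness to Cdkn1a is set at 5 by the rule, so it carries no information on stability. Trp53, Ccng1 and Gadd45a also kept their sign in all 11. Cdkn1b (limma-voom), Cdkn1c (without control 1, mutant 2 or mutant 3), Cdkn2a (replicate block, limma-voom, without control 3), Mdm2 (without control 2), Gdf15 and Gadd45b (each without mutant 3) took the opposite sign in the analyses named.

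Genes past an unadjusted p of 0.05 numbered 1164, 2276 without the filter on low counts, and 618 (without control 3) to 2427 (without control 1) with a library left out. Past an adjusted p they numbered 1, 245 without the filter, 58 in DESeq2, 0 in limma-voom, 0 with the replicate block and 0 to 31 with a library left out. The pathway lists held 37 calls, 19 to 39 with a library left out. Immediate early genes gave 13 higher, 8 with the block and 6 to 12 with a library left out. The p53 targets gave 6, and 3 to 7 with a library left out. The cause of these shifts was not tested. The deviations of same-numbered libraries had correlations of 0.16, -0.13 and 0.10, and those of differently numbered ones ran from -0.26 to 0.18. So few values cannot tell whether the replicate numbers pair the libraries, and the labels do not say. With the block the Cdkn1a log2 fold change was 1.04. Cdkn2a and Gdf15 had 116 and 72 counts in total and varied widely between libraries of a group, and the source of this spread was not tested.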
